A study of Mus musculus with 6 samples.

Results

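The long non-coding RNAs described here are 3 that stay in the nucleus, Malat1, Neat1 and Kcnq1ot1, and 6 small nucleolar RNA (snoRNA) host genes, Gas5, Snhg1, Snhg3, Snhg8, Snhg12 and Snhg15. They were chosen by name, with earlier results of these data known, as the rows whose Ensembl identifiers carry these symbols. They are 9 of the 32061 genes in the deposited count table. All 9 had enough counts to be tested. RNA was sequenced from cultured mouse biliary epithelial cells, which form the lining of bile ducts, with the primary cilium either lost or kept. The 3 cilia-depleted samples were treated with 4OHT, the active metabolite of tamoxifen, and the 3 cilia-competent samples were not. The columns of the count table are headed PC WT and PC KO, taken here as cilia-competent and cilia-depleted. Beyond these headings, the labels give neither strain, age nor genotype, and do not name the gene or the Cre that 4OHT acted on. Both groups came from hand-picked bile ducts that were passaged as organoids in Matrigel and then grown flat on collagen. 4OHT and cilium loss went together in every sample, so their effects cannot be told apart, and nothing in the labels says whether the replicates were separate animals or cultures, so the p-values rest on spread that could be technical.

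Malat1 is a long, mostly unspliced RNA held at nuclear speckles, the bodies where splicing factors gather. Neat1 is transcribed from the neighbouring gene and is the scaffold of paraspeckles, nuclear bodies that hold RNA-binding proteins, while Kcnq1ot1 is an unspliced antisense RNA made from the paternal allele that silences its imprinted neighbours in cis. The host genes are spliced to release snoRNAs from their introns, which guide chemical modification of ribosomal and spliceosomal RNA. The remaining exons of Gas5 and Snhg1 are bound by ribosomes and removed by nonsense-mediated decay, so their steady level depends on translation as well as on transcription. In bulk RNA, fewer cells of a type and less RNA per cell cannot be told apart.

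The 3′ ends of Malat1 and of the long Neat1 transcript are shown because they bear on what poly-A selected libraries can count. Both ends are known to be made by RNase P rather than by the polyadenylation machinery, and to be held by a triple helix in place of a poly-A tail, whereas the short Neat1 transcript is polyadenylated. The sequences are from the GENCODE M21 annotation of GRCm38, written 5′ to 3′ on the minus strand. Capitals in the first and second mark the stretches of at least 10 nt that they share, of 13, 16 and 11 nt, and capitals in the last mark AATAAA, a form of the polyadenylation signal.
Malat1, chr19:5795982-5796081, up to the last base of the A-rich tract: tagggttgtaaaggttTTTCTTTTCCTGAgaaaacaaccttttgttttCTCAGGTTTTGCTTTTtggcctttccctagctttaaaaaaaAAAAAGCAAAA
Neat1 long transcript, chr19:5824708-5824807: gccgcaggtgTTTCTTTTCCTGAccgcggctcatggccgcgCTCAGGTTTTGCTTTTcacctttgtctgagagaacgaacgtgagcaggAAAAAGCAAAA
Neat1 short transcript, chr19:5842307-5842336: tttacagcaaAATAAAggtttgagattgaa
The annotated Malat1 gene runs 292 bases past the tract. Counts were given per gene, so the long Neat1 transcript of 20771 nt and the short one of 3004 nt cannot be told apart.

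Start sites are shown because snoRNA host RNAs are a known class of 5′ terminal oligopyrimidine (TOP) transcripts, which begin with an unbroken run of C and T that couples them to growth signalling. RefSeq promoter windows (GRCm38.p6) matched 8 of the 9 genes and gave 9 start sites, with 2 for Gas5. Each sequence runs from 10 bases before the annotated start, and capitals mark the run of C and T that covers the start base.
Malat1, chr19:5802653-5802682, minus strand: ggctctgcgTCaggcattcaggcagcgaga
Kcnq1ot1, chr7:143296528-143296557, minus strand: ttgtcgctaggaggaacagttgcctcagca
Gas5, chr1:161035156-161035185, plus strand: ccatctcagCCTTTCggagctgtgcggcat
Snhg1, chr19:8723477-8723506, plus strand: tcttgtcggCCTCatttttccttgttcggg
Snhg3, chr4:132353667-132353696, minus strand: gaccacgcctgacttccgggcgttacttaa
Snhg8, chr3:123508317-123508346, minus strand: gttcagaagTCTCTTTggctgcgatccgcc
Snhg12, chr4:132308668-132308697, plus strand: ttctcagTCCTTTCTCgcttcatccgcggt
Snhg15, chr11:6528741-6528770, minus strand: ctgtgaccgtaactttaagcacacgtgagc
The run was 9 bases long in Snhg12, 7 in Snhg8, 6 in Gas5, 4 in Snhg1 and 2 in Malat1, and the start base of Snhg3, Snhg15, Kcnq1ot1 and the upstream Gas5 site lay in no such run. A run of at least 4 bases covered the start in 13.97% of 32851 windows over all genes, and one of at least 6 in 7.25%. Among hosts with a run, the log2 changes described below were 1.66 for Snhg12, 0.28 for Snhg8, 0.73 for Gas5 (downstream site) and 1.37 for Snhg1. Among hosts without one, they were 2.10 for Snhg15 and -0.39 for Snhg3. A link between the run and the change was not tested.

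The 300-base windows around the Gas5 and Snhg15 starts each held TGACGTCA, the palindromic cAMP response element bound by CREB and ATF proteins, shown in capitals.
Gas5, chr1:161034916-161035215, plus strand: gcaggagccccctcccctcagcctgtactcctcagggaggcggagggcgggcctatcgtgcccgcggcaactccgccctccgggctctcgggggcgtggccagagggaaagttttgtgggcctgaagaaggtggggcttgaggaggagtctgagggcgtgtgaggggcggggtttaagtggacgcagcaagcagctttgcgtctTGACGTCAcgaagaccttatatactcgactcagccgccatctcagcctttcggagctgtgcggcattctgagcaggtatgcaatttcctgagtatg
Snhg15, chr11:6528711-6529010, minus strand: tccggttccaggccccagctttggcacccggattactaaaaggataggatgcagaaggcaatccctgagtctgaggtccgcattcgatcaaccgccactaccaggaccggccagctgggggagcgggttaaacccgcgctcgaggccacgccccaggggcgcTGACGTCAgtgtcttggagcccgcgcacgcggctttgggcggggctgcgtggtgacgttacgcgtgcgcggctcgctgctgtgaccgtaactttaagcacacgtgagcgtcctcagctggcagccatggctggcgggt
The first base of the element lay 46 bases before the Gas5 start and 88 bases before the Snhg15 start. Both strands were searched for 5 motifs, and no matches in these windows overlapped. TGACGTCA was in 2 of the 9 member windows and in 1.79% of all windows. CACGTG, the E-box, was in the Snhg15 window alone and in 7.15% of all windows. In Snhg15 it lay after the start, from base 12 with the start as base 1. TATAAA, the letters of the TATA box, was in 3 member windows, of Snhg1, Snhg3 and Snhg8, and in 13.62% of all windows. Only in Snhg8 did it lie before the start on the strand of the gene. In Snhg1 it was on the other strand, and in Snhg3 it lay after the start. TGANTCA, the AP-1 motif, and GCGNGGGCG, the EGR motif, were in 0 member windows, and in 7.81% and 5.55% of all windows. A match describes the letters and does not show that a factor binds there.

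The libraries held 26293486 to 36998935 counts in cilia-depleted cells and 32199606 to 36093068 in cilia-competent cells, so that 3 counts correspond to between 0.0811 and 0.114 CPM (counts scaled to a common library size). Intervals and floors of this kind cover counting error only. Replicates were close, with a biological coefficient of variation of 5.20% across genes. All 8 markers fixed for biliary cells were detected, and their summed level was 5448 to 5693 CPM in cilia-depleted cells, against 7293 to 7434 CPM in cilia-competent cells, with 2 of 8 higher and 5 lower. Krt7, a duct keratin and the highest of them, averaged 2471 CPM in cilia-depleted cells and 3150 CPM in cilia-competent cells. Some markers of other cells were also counted. The 7 mesenchymal markers summed to 2.92 to 3.88 CPM in cilia-depleted cells, against 2.09 to 3.05 CPM in cilia-competent cells, with Col1a2 and Col3a1 at 0. Col1a1 rose, averaging 3.04 CPM in cilia-depleted cells and 1.38 CPM in cilia-competent cells, and Acta2 fell, averaging 0.344 CPM in cilia-depleted cells and 1.29 CPM in cilia-competent cells. The 5 endothelial markers summed to 0.227 to 0.561 CPM in cilia-depleted cells, against 0.0587 to 0.396 CPM in cilia-competent cells. The 5 leukocyte markers summed to 45.4 to 51.3 CPM in cilia-depleted cells and 50.6 to 50.8 CPM in cilia-competent cells, most of it Csf1r, at 43.2 CPM in cilia-depleted cells and 47.2 CPM in cilia-competent cells. Cd68 rose, averaging 5.41 CPM in cilia-depleted cells and 3.42 CPM in cilia-competent cells, with the pan-leukocyte gene Ptprc at 0.185 CPM in cilia-depleted cells and 0.149 CPM in cilia-competent cells. The 6 hepatocyte markers summed to 240.1 to 247.9 CPM in cilia-depleted cells, against 214.4 to 236.9 CPM in cilia-competent cells. Most of it was Hnf4a, at 227 CPM in cilia-depleted cells and 203 CPM in cilia-competent cells, while Ttr fell, averaging 11.3 CPM in cilia-depleted cells and 16.0 CPM in cilia-competent cells. Alb was at 2.57 CPM in cilia-depleted cells and 2.61 CPM in cilia-competent cells and Cyp3a11 at 0. The part of these markers in the results below was not tested.

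Of the 9 genes, 8 were higher and 1, Snhg3, was lower in cilia-depleted cells by edgeR's quasi-likelihood test with Benjamini-Hochberg adjustment at 0.05, on CPM scaled by trimmed mean of M-values (TMM). This has to be read against the whole table, where 69.2% of the 13839 tested genes passed, 34.9% higher and 34.3% lower, so that passing the test sets no gene apart here. The median log2 change of the 9 was 1.26, against -0.0057 over all tested genes. Of the 9, 5 rose by more than 2-fold, as did 7.43% of all tested genes. The 9 were chosen with earlier results of these data known, so these sizes describe them and not such genes in general. The median was 0.06 over 11 other tested non-coding snoRNA hosts, and 0.31 over 10 other tested nuclear or chromatin-bound lncRNAs. The 2 groups did not overlap in any of the 9 genes, as was so for 72.5% of all tested genes.

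**Figure D1:**
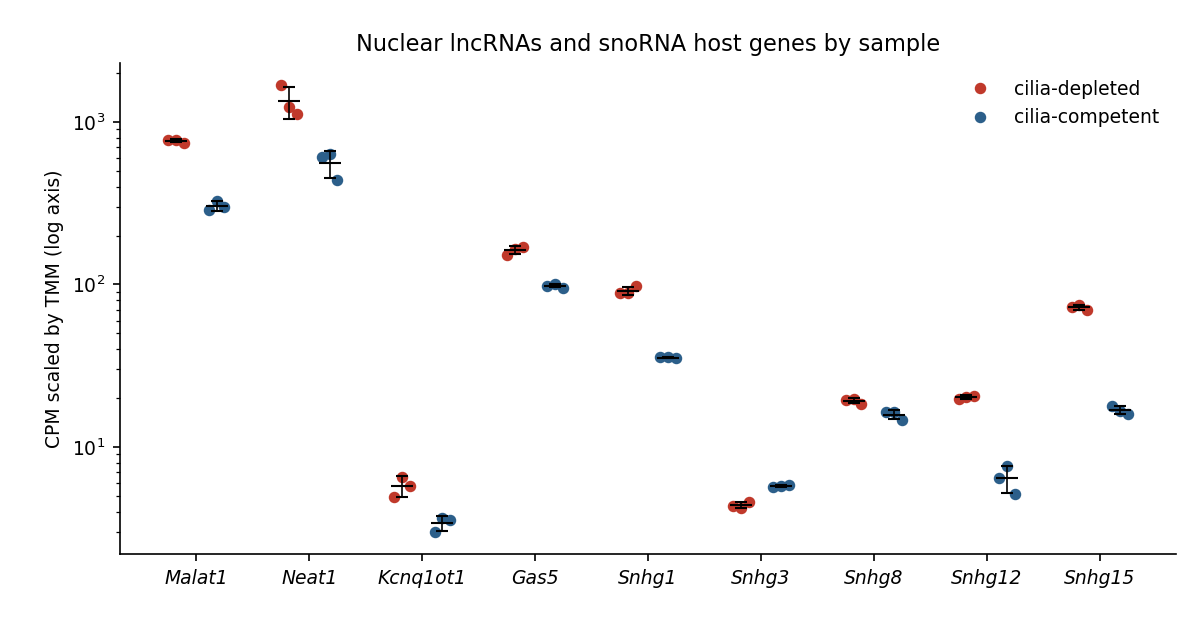
CPM of each of the 9 genes in every sample, with cilia-depleted samples left of cilia-competent ones, on a log axis, with points for samples and black bars for the group mean and SD of 3 samples. The groups did not overlap for any gene, with Snhg3 lower and the other 8 higher in cilia-depleted cells.

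Malat1 (ENSMUSG00000092341, GRCm38 chr19:5795690-5802672, minus strand, 1 exon block of 6983 nt) had 774, 774 and 748 CPM in cilia-depleted cells, against 287, 327 and 298 CPM in cilia-competent cells. All depleted samples lay far above all competent ones, with little spread in either group. The means were 765 ± 15.4 and 304 ± 20.4 CPM (SD, n = 3 each), a 2.52-fold difference (log2 1.33, SE 0.0515, adjusted p = 1.03e-10 by edgeR). Raw counts were 19545, 24841 and 26399 in cilia-depleted cells, against 9783, 11548 and 11241 in cilia-competent cells. Malat1 made up 0.0732% ± 0.0016 of all counts in cilia-depleted cells and 0.0318% ± 0.0018 in cilia-competent cells (SD, n = 3 each; exact permutation p = 0.1, two-sided, the smallest that 3 samples against 3 allow).

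Neat1 (ENSMUSG00000092274, chr19:5824708-5845478, minus strand, 22036 nt from Malat1) was the most abundant of the 9, with 1681, 1231 and 1123 CPM in cilia-depleted cells, against 611, 632 and 439 CPM in cilia-competent cells. The groups were separate, but this was the most scattered of the abundant genes, with a coefficient of variation of 22% in cilia-depleted and 18.9% in cilia-competent cells. The difference was 2.40-fold (log2 1.26, SE 0.143, adjusted p = 3.33e-06 by edgeR). Neat1 counts per Malat1 count were 2.171, 1.590 and 1.503 in cilia-depleted cells, against 2.129, 1.933 and 1.470 in cilia-competent cells. The ranges of that ratio overlap (exact permutation p = 1, two-sided), so a difference in the balance of the 2 neighbouring RNAs was not detectable with 3 samples a group.

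Kcnq1ot1 (ENSMUSG00000101609, chr7:143203458-143296549, minus strand, antisense within Kcnq1) was the scarcest for its length, with 125, 211 and 204 raw counts in cilia-depleted cells, against 102, 130 and 133 in cilia-competent cells. These are 4.95, 6.58 and 5.78 CPM in cilia-depleted cells, against 2.99, 3.68 and 3.53 CPM in cilia-competent cells. The lowest depleted sample lay above the highest competent one. The difference was 1.70-fold (log2 0.77, SE 0.137, adjusted p = 0.000219 by edgeR). This call was lost when the trend of change with transcript length, described below, was removed (log2 0.25, adjusted p = 0.111 by edgeR). The annotated transcript of 93092 nt lies near the far end of the lengths, where the longest decile runs from 6720 to 1.232e+05 nt. How well the trend is known at that length was not tested.

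Among the host genes, Snhg15 (ENSMUSG00000085156, chr11:6525591-6528760, minus strand), the host of 1 annotated snoRNA, changed most. It had 72.4, 74.7 and 70.1 CPM in cilia-depleted cells, against 17.9, 16.7 and 16.0 CPM in cilia-competent cells. The difference was 4.29-fold (log2 2.10, SE 0.0557, adjusted p = 2.31e-12 by edgeR), and its log2 change ranked 153 from the top among the 13839 tested genes.

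Snhg12 (ENSMUSG00000086290, chr4:132308623-132311024, plus strand), which holds 5 annotated snoRNA entries, had 19.6, 20.2 and 20.7 CPM in cilia-depleted cells, against 6.49, 7.58 and 5.15 CPM in cilia-competent cells. The cilia-depleted samples were tightly grouped, with a coefficient of variation of 2.78%, against 19% in cilia-competent cells. The difference was 3.16-fold (log2 1.66, SE 0.109, adjusted p = 1.72e-08 by edgeR).

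Snhg1 (ENSMUSG00000108414, chr19:8723475-8726443, plus strand) hosts 8 annotated snoRNAs, of the C/D family that guides ribose methylation. It had 88.0, 88.8 and 97.5 CPM in cilia-depleted cells, against 35.7, 35.7 and 35.1 CPM in cilia-competent cells. The cilia-competent samples were almost equal, and the difference was 2.58-fold (log2 1.37, SE 0.0508, adjusted p = 6.85e-11 by edgeR).

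Gas5 (ENSMUSG00000053332, chr1:161034422-161038539, plus strand) holds 10 annotated snoRNA entries and takes its name from its accumulation in growth-arrested cells. It had 153, 166 and 170.3 CPM in cilia-depleted cells, against 98.5, 101 and 95.8 CPM in cilia-competent cells. It was the most counted host gene in both groups. The difference was 1.66-fold (log2 0.73, SE 0.0479, adjusted p = 1.69e-08 by edgeR). Snhg15 counts per Gas5 count were 0.445 ± 0.0317 in cilia-depleted cells and 0.172 ± 0.0090 in cilia-competent cells (SD, n = 3 each; exact permutation p = 0.1, two-sided, the smallest possible). Snhg1 counts per Gas5 count were 0.561 ± 0.0239 in cilia-depleted cells and 0.361 ± 0.0063 in cilia-competent cells, with the same exact permutation p of 0.1. Neither ratio overlapped between the groups.

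Snhg8 (ENSMUSG00000104960, chr3:123507552-123508404, minus strand), the host of 1 annotated snoRNA, had the smallest rise, with 19.5, 19.7 and 18.5 CPM in cilia-depleted cells, against 16.4, 16.4 and 14.7 CPM in cilia-competent cells. The groups were close but separate. The difference was 1.22-fold (log2 0.28, SE 0.0689, adjusted p = 0.00246 by edgeR).

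Snhg3 (ENSMUSG00000085241, chr4:132348014-132353686, minus strand), the host of Snora73a and Snora73b, was the 1 member that fell. It had 4.32, 4.24 and 4.59 CPM in cilia-depleted cells, against 5.64, 5.74 and 5.82 CPM in cilia-competent cells. The level was 1.31-fold lower in cilia-depleted cells (log2 -0.39, SE 0.107, adjusted p = 0.00566 by edgeR), and that call too was lost with the length trend removed (log2 -0.10, adjusted p = 0.434). Of the annotated Snhg3 exon bases, 71.5% lie opposite exons of another gene on the other strand and 29.8% overlap exons of other genes on the same strand, Rcc1 among them, and the strand setting of the counting is not given in the sources used here. Its value is therefore uncertain. Snhg12 lies 36990 nt away on the other strand and moved the other way: Snhg12 counts per Snhg3 count were 4.54, 4.77 and 4.52 in cilia-depleted cells, against 1.15, 1.32 and 0.886 in cilia-competent cells (exact permutation p = 0.1, two-sided, the smallest possible).

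Levels can be compared between genes only per length. On CPM per kilobase of annotated exon, the order in cilia-depleted cells was Malat1 at 110 ± 2.21, Neat1 at 64.8 ± 14.2, Snhg15 at 53.3 ± 1.71, Gas5 at 43.4 ± 2.47, Snhg1 at 30.8 ± 1.77, Snhg8 at 22.5 ± 0.790, Snhg12 at 8.41 ± 0.234, Snhg3 at 4.44 ± 0.185 and Kcnq1ot1 at 0.0620 ± 0.0087 (SD, n = 3). In cilia-competent cells it was Malat1 at 43.6 ± 2.92, Neat1 at 27.0 ± 5.11, Gas5 at 26.2 ± 0.677, Snhg8 at 18.5 ± 1.18, Snhg15 at 12.4 ± 0.710, Snhg1 at 11.96 ± 0.112, Snhg3 at 5.81 ± 0.0911, Snhg12 at 2.67 ± 0.507 and Kcnq1ot1 at 0.0365 ± 0.0039. Neighbours whose ranges overlapped were Neat1 and Snhg15 in cilia-depleted cells, and Neat1 and Gas5, and Snhg15 and Snhg1, in cilia-competent cells. The length is that of all annotated exons joined, so a gene of which a short isoform is used reads too low. It includes bases shared with exons of other genes on the same strand. These were 29.8% for Snhg3, 20.95% for Snhg1, 19.57% for Snhg12, 17.79% for Gas5, 15.24% for Snhg8 and 9.79% for Snhg15. How reads there were counted is not given, so close places among the hosts are uncertain. For Neat1 20771 nt was used. If the counts came mainly from its short transcript of 3004 nt it reads far too low, so its place below Malat1 is uncertain.

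**Figure D2:**
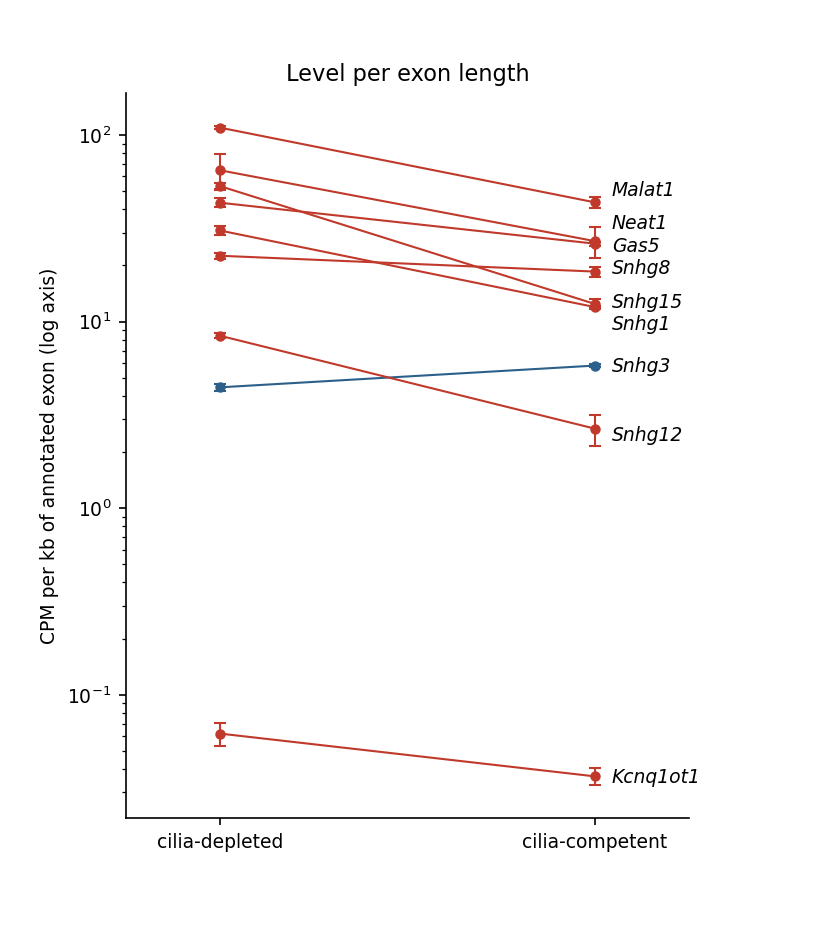
Level of each gene as CPM per kilobase of annotated exon on a log axis, as the mean and SD of 3 samples in cilia-depleted (left) and cilia-competent cells (right), joined by a line that is red where the gene was higher and blue where it was lower in cilia-depleted cells. With all annotated exons as the length, Malat1 is highest and Kcnq1ot1 lowest in both groups, but the place of Neat1 depends on which transcript was counted. Snhg12 stands above Snhg3 in cilia-depleted cells but below it in cilia-competent cells.

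Change depended on transcript length across the whole table, which matters for genes as long as Kcnq1ot1 and as short as Snhg3. The median log2 change was -0.27 in the decile of tested genes whose longest annotated transcript was shortest, up to 1204 nt, and 0.28 in the decile where it was longest, from 6720 nt (Spearman's rho 0.32 across genes, which are not independent replicates). With that trend removed from each library, 7 of the 9 genes passed the test and all 7 were higher in cilia-depleted cells, against a background of 68.7% of all tested genes passing, 33.6% higher and 35.1% lower. The long RNAs came down, to log2 1.10 for Malat1, 0.84 for Neat1 and 0.25 for Kcnq1ot1. The short hosts went up, to 2.40 for Snhg15, 1.92 for Snhg12, 0.61 for Snhg8 and -0.10 for Snhg3, while Snhg1 at 1.39 and Gas5 at 0.78 moved little. The median log2 change of the 9 was then 0.84. What makes the trend was not tested. The length used was that of the longest annotated transcript, 2728 nt for Snhg1 and 2556 nt for Gas5. Their shortest ones are 312 and 346 nt, so how little these hosts moved depends on that choice.

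**Figure D3:**
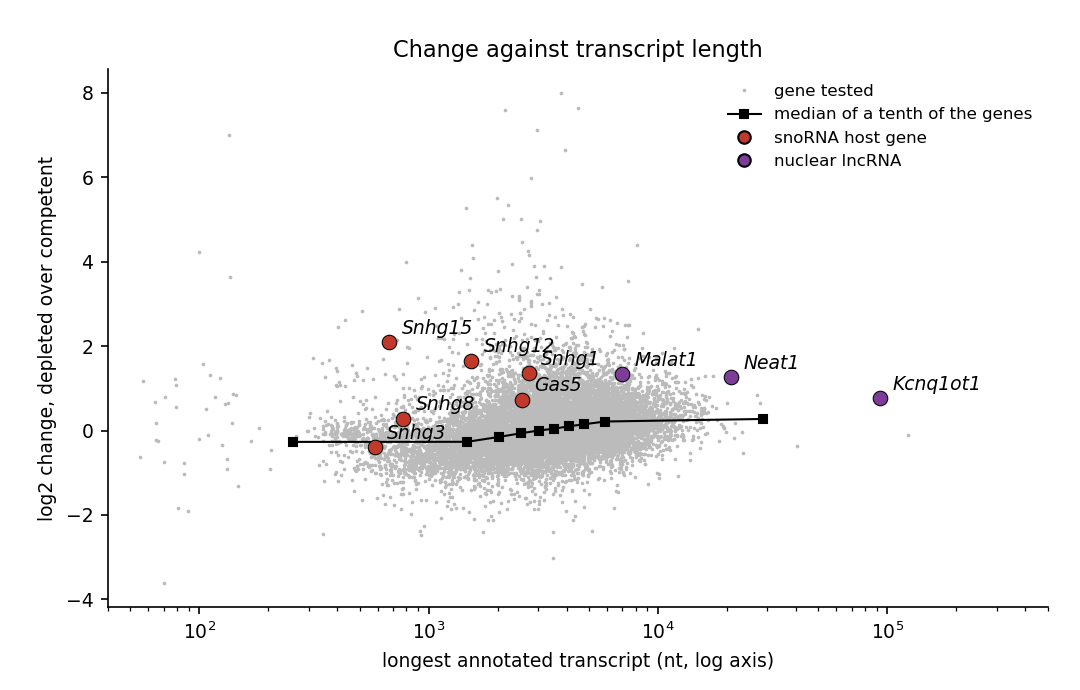
Log2 change, cilia-depleted over cilia-competent, against the longest annotated transcript in nt on a log axis, for the tested genes with an annotated length in grey, with the 9 genes named (hosts red, nuclear lncRNAs purple) and the median of each length decile as a line. The line climbs with length, and Snhg15, Snhg12 and Snhg1 lie well above it at their lengths while Snhg3 lies near it.

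The snoRNAs themselves could not be followed in these libraries. The annotation places 27 snoRNA gene entries inside the 6 hosts, of which 22 have a row in the count table. Snord80 in Gas5 and Snora16a in Snhg12 each appear under more than 1 identifier at nearly the same position, so the distinct snoRNAs are fewer. Of those rows, 20 held no count in any sample, and all 20 overlap annotated exons of their host. Snora73a had 1, 6 and 2 counts in cilia-depleted cells, against 11, 16 and 10 in cilia-competent cells, too few to be tested. Snora73b had 24, 27 and 12 counts in cilia-depleted cells, against 35, 36 and 31 in cilia-competent cells (log2 -0.47, adjusted p = 0.218 by edgeR). Poly-A selection does not retain mature snoRNAs as such, so these counts say nothing of their amount.

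Of 11 tested genes among 15 other non-coding snoRNA hosts, 5 rose and 2 fell, and the median log2 change was 0.06. The counts for this list and those below have to be read against all tested genes, of which 34.9% rose and 34.3% fell. Snhg16 averaged 31.9 ± 1.69 CPM in cilia-depleted cells and 9.34 ± 0.730 CPM in cilia-competent cells (log2 1.77), and Snhg5 averaged 53.4 ± 2.45 CPM in cilia-depleted cells and 18.1 ± 1.69 CPM in cilia-competent cells (log2 1.57). Dancr fell by 1.503 on the log2 scale, to 0.826 ± 0.276 CPM in cilia-depleted cells, against 2.36 ± 0.431 CPM in cilia-competent cells, and Snhg20 fell by 1.18 (SD, n = 3 each). Rises and falls of over 2-fold thus occur side by side among the hosts. Snhg4, Snhg7 and Snhg17 were not analysed here. Among 28 protein-coding hosts, 5 rose and 11 fell, with a median of -0.09, but with the length trend removed 13 rose and 8 fell, and with upper-quartile scaling 3 rose and 17 fell, so this list has no settled direction. Eif4a2, a translation initiation helicase, rose (log2 0.79), while Dkc1, the pseudouridine synthase of H/ACA particles, fell (-0.60), as did the chaperonin subunit gene Cct6a (-0.38) and the initiation helicase gene Eif4a1 (-0.32).

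Genes for the proteins that bind and assemble snoRNAs fell more often than they rose. Of 17 genes of snoRNA particle proteins and their assembly factors, 2 rose and 12 fell, with a median log2 change of -0.34 (-0.24 with the length trend removed, 2 rising and 13 falling). Nhp2, a core protein of H/ACA particles, averaged 35.8 ± 1.96 CPM in cilia-depleted cells and 67.6 ± 2.92 CPM in cilia-competent cells (log2 -0.92). Gar1 (-0.78) and Nop10 (-0.72), which are its partners in those particles, and the assembly factor Znhit3 (-0.67) also fell. Of 10 nonsense-mediated decay factors, the pathway that removes host exons, 8 rose and 2 did not pass, with a median of 0.50 (7 rose with the length trend removed, and 6 with upper-quartile scaling). Upf3b (0.79) and Upf2 (0.65), which link the exon junction to the decay machinery, and Smg6 (0.59), which cuts the RNA after its recognition, were among those that rose.

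Genes for proteins of the bodies that Malat1 and Neat1 belong to had smaller changes than these RNAs. Of 9 nuclear speckle genes, 6 rose and 2 fell, with a median log2 change of 0.40 (0.22 with the length trend removed). The splicing coactivators Srrm2 (0.82) and Srrm1 (0.54) led, followed by Pnisr (0.48) and Acin1 (0.46). Of 15 paraspeckle genes, 7 rose and 6 fell, with a median of -0.02, and 4 rose and 7 fell both with the length trend removed and with upper-quartile scaling. Tardbp (-0.49) and Nudt21 (-0.39), an RNA-binding protein and a 3′ end processing factor, fell, while Taf15 (0.35) and Sfpq (0.29), a core paraspeckle protein, rose. Of 8 nuclear RNA decay factors, 4 rose and 1 fell. Zcchc8 (0.64) and Rbm7 (0.45), which form the nuclear exosome targeting complex, and the exosome subunit Exosc3 (0.21) rose, and Zfc3h1 (-0.43), which links the exosome to polyadenylated RNA, fell.

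Of 20 other nuclear or chromatin-bound lncRNAs, 10 were tested, of which 6 rose and 1 fell, and the median log2 change was 0.31. Dleu2 averaged 8.32 ± 0.778 CPM in cilia-depleted cells and 2.11 ± 0.287 CPM in cilia-competent cells (log2 1.98), and Pvt1, next to Myc, averaged 42.5 ± 2.16 CPM in cilia-depleted cells and 15.4 ± 0.776 CPM in cilia-competent cells (log2 1.47; SD, n = 3 each). Ftx, from the X-inactivation centre, rose by 1.39 and Lncpint by 0.75 on the log2 scale. Meg3, Tsix, Mirg, Hotair and Hottip had no count in any library. Over the 9 lists together, 113 genes were tested, of which 43 rose and 38 fell, close to the shares of all tested genes, 34.9% and 34.3%. With upper-quartile scaling 35 rose and 47 fell, where 4434 of all tested genes rose and 5236 fell.

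**Figure D4:**
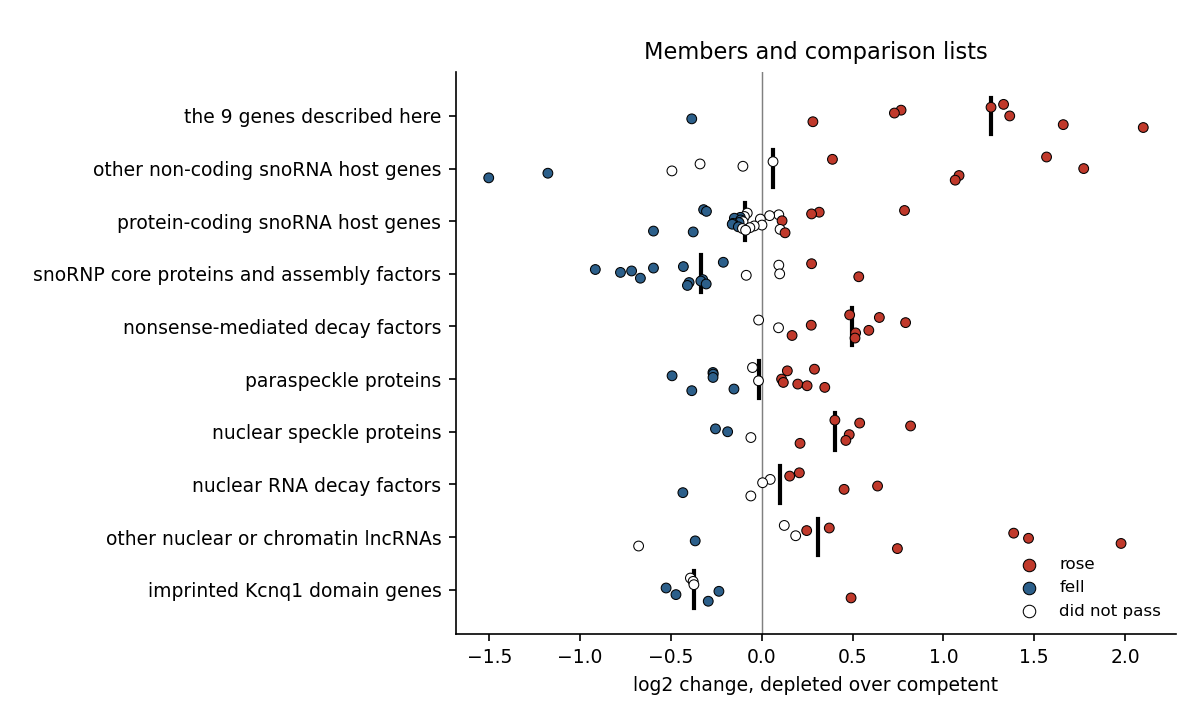
Log2 change, cilia-depleted over cilia-competent, of every tested gene in the 9 comparison lists and of the 9 genes described here, with list medians as bars, red points for genes that rose, blue for those that fell and white for those that did not pass. The median of the 9 genes is 1.26, and those of the lists lie between -0.38 and 0.50.

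Apart from Malat1 and Neat1 beside each other, tested genes near Malat1, Neat1, Snhg1, Snhg12 and Snhg15 had log2 changes smaller in size than these 5. Phactr4 (0.69), beside Snhg3, and Rcc1 (-0.53), which overlaps it, had changes larger in size than that of Snhg3 (-0.39). Of 26 tested neighbours within 50 kb, 9 rose and 5 fell, against 34.9% and 34.3% of all tested genes, and the median log2 change was 0.10. Near Malat1 and Neat1, Ltbp3 (0.24) and Slc25a45 (0.62) rose, whereas Frmd8, 4224 nt from Neat1, was at 0.01 (adjusted p = 0.913 by edgeR). Slc3a2, an amino acid transporter gene that lies on the opposite strand 106 nt from Snhg1, rose slightly (0.12, adjusted p = 0.0392 by edgeR), Nxf1 (0.57), Stx5a (0.55) and Taf6l (0.46) rose, and Wdr74 (-0.44), Tmem179b (-0.44) and Tmem223 (-1.01) fell. Zbtb37, which overlaps Gas5 on the other strand, was at 0.15 (adjusted p = 0.179 by edgeR). Trnau1ap, 739 nt from Snhg12 on the other strand, was at 0.08 (adjusted p = 0.455 by edgeR).

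Rcc1, the exchange factor for the GTPase Ran, shares exon sequence with Snhg3 and fell with it, to 12.2 ± 1.07 CPM in cilia-depleted cells, against 17.6 ± 0.649 CPM in cilia-competent cells (SD, n = 3 each; log2 -0.53, adjusted p = 4.01e-05 by edgeR). Snhg3 counts per Rcc1 count were 0.360 ± 0.0280 in cilia-depleted cells and 0.327 ± 0.0169 in cilia-competent cells (SD, n = 3 each; exact permutation p = 0.3, two-sided). In the imprinted domain around Kcnq1ot1, 8 of 11 genes were tested, of which 1 rose and 4 fell, with a median log2 change of -0.38 (-0.20 with the length trend removed, 1 rising and 3 falling). Slc22a18 (-0.53), Cd81 (-0.47) and Nap1l4 (-0.29) fell and Osbpl5 (0.49) rose. Kcnq1 itself, at -0.39, did not pass (adjusted p = 0.183 by edgeR), nor did Cdkn1c and Phlda2, the best known targets of silencing in the domain, at -0.38 and -0.37 (adjusted p = 0.108 and 0.114 by edgeR). In cilia-depleted and cilia-competent cells they averaged only 0.644 and 0.851 CPM (Kcnq1), 1.37 and 1.78 (Cdkn1c) and 2.36 and 3.10 (Phlda2). With SE of 0.25, 0.20 and 0.20 on the log2 scale, changes of this size could be missed.

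**Figure D5:**
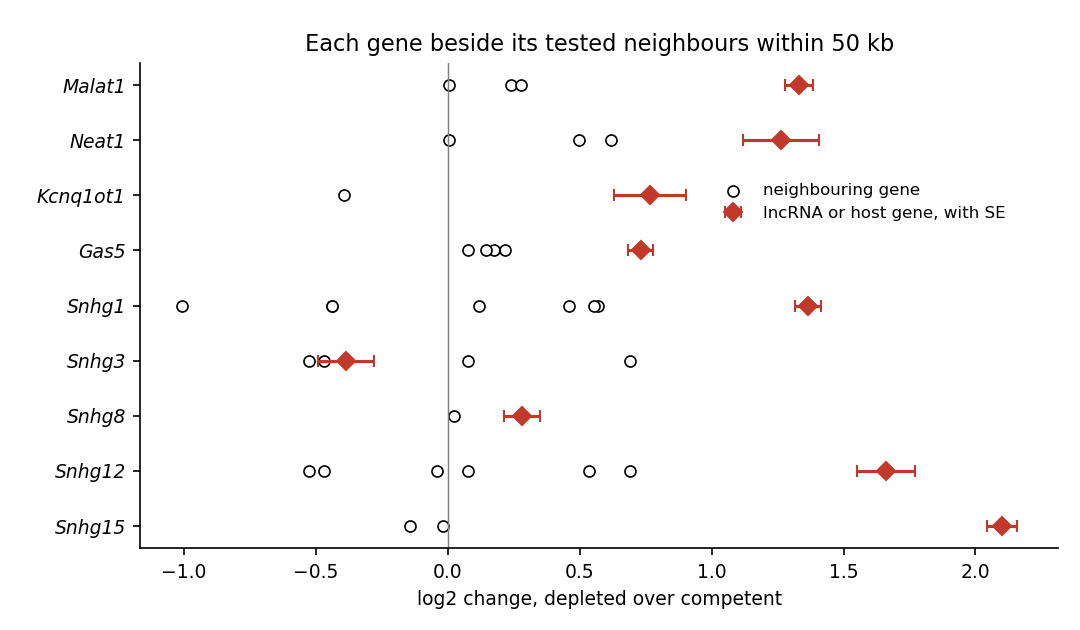
Log2 change, cilia-depleted over cilia-competent, of each of the 9 genes (red diamonds, with SE) and of the tested genes within 50 kb of it (open circles). Neighbours lie between -1.01 and 0.69, so that the 2-fold and larger rises of Snhg15, Snhg12, Snhg1, Malat1 and Neat1 stand above all of their neighbours other than each other.

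The genes whose levels followed each member most closely over the 6 samples were found by the Euclidean distance between centred log2 CPM, among 10493 candidate genes. For Malat1 they were Ankrd1 at a distance of 0.061 and Nufip2 at 0.070, and for Neat1 Cbfa2t3 at 0.21 and Hist1h2ac at 0.23. For Snhg15 they were Epc1 at 0.058 and Clk1 at 0.077, for Snhg1 Rcan1 at 0.055 and Odc1 at 0.082, and for Snhg12 Gpr146 at 0.17 and Rnf39 at 0.23. For Gas5 they were Pold1 and Smarcad1, for Snhg8 Lrch3 and Tada3, for Kcnq1ot1 Fndc3a and Scaper, and for Snhg3 Cyp4v3 and Tars. The 6 samples form 2 groups, so this measure largely ranks genes by how alike their group differences were.

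Per library, the 9 genes made up 0.270%, 0.228% and 0.216% of all counts in cilia-depleted cells, against 0.115%, 0.119% and 0.0953% in cilia-competent cells. Most of this was Neat1 and Malat1: the 6 host genes made up 0.0354% ± 0.0011 in cilia-depleted cells and 0.0187% ± 0.0006 in cilia-competent cells (SD, n = 3 each; exact permutation p = 0.1, two-sided, the smallest possible).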

How the data were processed

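RNA from 6 cultured samples, 3 cilia-depleted and 3 cilia-competent, was sequenced after poly-A selection with a directional kit, per the labels' protocols. The authors deposited raw counts per Ensembl gene. FastQC 0.11.9, MultiQC 1.3, cutadapt 1.16, STAR 2.7.1a, featureCounts, DESeq2 1.34.0 and GRCm38 are named in the submitters' processing notes; the sources used here give neither parameters nor the strand setting of counting. The count table's columns are headed PC WT and PC KO, taken as cilia-competent and cilia-depleted, and 0 columns belonged to other samples.

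The tests ran in edgeR 4.0.16 under R 4.3.3 on whole counts (TMM scaling, filterByExpr, quasi-likelihood F-test over all genes that passed the filter, Benjamini-Hochberg threshold 0.05). The code was tested on simulated data. CPM are TMM-scaled. Exact permutation tests over the 6 samples were used for ratios and shares. Sequences came from RefSeq (GRCm38.p6) and from GENCODE M21. The 13 alternatives covered 2 other scalings, DESeq2 1.42.0, 2 low-count filters, the replicate number as a block, the length trend removed by a loess curve (span 0.3) and each sample left out. The genes and lists were chosen with earlier results of these data known. Named genes were the 9 members, up to 4 genes past the threshold with the largest change from each list, tested neighbours within 50 kb, the 2 genes most alike each member and the highest markers. Cdkn1c, Phlda2 and the markers other than the highest of each list were named after their values were seen. Some genes that this rule names are not reported here.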

Additional observations from a re-analysis of the deposited data

How the results depend on the processing

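Across 13 alternatives (upper-quartile and DESeq2-style scaling, DESeq2, 2 low-count filters, the replicate block, the length trend removed and each sample left out), Malat1, Neat1, Gas5, Snhg1, Snhg8, Snhg12 and Snhg15 kept their direction and their call in all 13, and Kcnq1ot1 and Snhg3 in 12. The exception for both was the length trend removed, with log2 changes of 0.25 (adjusted p = 0.111 by edgeR) and -0.10 (adjusted p = 0.434 by edgeR); the cause was not tested. Leaving out each sample in turn gave log2 changes of 1.07 to 1.38 for Neat1, 0.66 to 0.86 for Kcnq1ot1 and -0.42 to -0.36 for Snhg3. With the replicate number as a block, 9526 genes passed, against 9576 without it. Same-numbered samples of the 2 groups did not deviate together across genes (r = -0.028, 0.013 and -0.016), and 0 of 6 samples correlated best with their own number. With so few samples this cannot show that they were unpaired, and the labels do not say. The main test used no pairing. For Neat1 the block gave log2 1.26, SE 0.0778 and adjusted p = 9.23e-09, against SE 0.143 and adjusted p = 3.33e-06 without it (both by edgeR). By scaling, the centre of all tested genes (median log2) lay at -0.0057 for TMM, -0.0042 for DESeq2-style factors and -0.056 for upper-quartile factors. Depth limits Kcnq1ot1 and Snhg3 most, with 102 to 219 counts per library.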
